A study of Homo sapiens with 6 samples.

Results

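The 10 genes described here, HSPA5, HSP90B1, PDIA4, CALR, DNAJB9, DNAJC3, HERPUD1, SDF2L1, XBP1 and EDEM1, belong to the unfolded protein response of the endoplasmic reticulum. They were chosen by symbol, and all 10 were found among the 19491 genes listed in the tables. PC-3 cells, an established line of human prostate cancer that the labels write PC3, were grown in RPMI medium with fetal bovine serum and sodium pyruvate. The control cells received no inhibitor, another group received 1 mM GPNA (L-γ-glutamyl-p-nitroanilide) and the last 10 mM BenSer (benzylserine), each for 48 h, with 2 labelled RNA-seq libraries a group. Both compounds are amino acid analogues used to block ASCT2, a transporter that carries glutamine into the cell, and the comparisons address which mRNAs differ when this uptake is inhibited. A single cell line was used, so the values describe PC-3 cells and not prostate tumours in general.

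Secreted and membrane proteins fold in the endoplasmic reticulum, where the chaperones BiP (HSPA5), GRP94 (HSP90B1) and calreticulin (CALR) and the disulfide isomerase ERp72 (PDIA4) assist them. When unfolded protein accumulates, the membrane sensors IRE1 (ERN1), PERK (EIF2AK3) and ATF6 signal to the nucleus: ATF6 and the transcription factor made from spliced XBP1 mRNA induce chaperone and degradation genes through promoter elements known as ERSE, ERSE-II and UPRE, while PERK reduces translation and raises ATF4. Amino acid shortage also raises ATF4, through the kinase GCN2, and ATF4 acts on elements known as AARE.

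The libraries held 23077986 to 32178154 reads each, of which 51.6% to 52.7% lay on the listed genes. Levels are given as CPM, the reads of a gene scaled to a library of 1000000 reads. Over genes, the chi-square divided by its degrees of freedom was 1.04 to 1.06 between the 2 libraries of a group, close to the sampling of reads alone, and 5.50 to 20.7 between libraries of different groups. The 2 libraries of a group were therefore counted as 1 sample here. There was no replicate check of any treatment effect, and no p-value is given for one. The study's methods describe exact tests on 4 replicates a group, whereas the labels name 2 libraries. The 95% intervals below are exact intervals on the merged reads of a group and cover counting error only. CPM is a share of the RNA in a culture, so a change in RNA per cell, in total RNA or in the number of cells with a given state cannot be told apart. The epithelial markers KRT8, KRT18, KRT19, EPCAM and CDH1 were all present, at 87.3 to 669 CPM in the control, and of the markers of blood, vessel and stroma COL1A1 had a row, at 5.57 CPM.

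The promoter stretches that carry ERSE or ERSE-II are printed because they are the elements through which ATF6 and XBP1 are known to act, and that of DNAJB9 because this gene had the largest difference of the 10. Letters were searched on both strands of the RefSeq windows from 250 bases before to 50 bases after each start (RefSeq, GRCh38.p14), and all 10 genes matched a window. The stretches were then placed on GRCh37, the build of the tables, by unique sequence match. ERSE was searched as CCAAT and CCACG with 9 bases of any kind between them, and ERSE-II as ATTGG and CCACG with 1 base between them. Each sequence is written 5′ to 3′ on the strand of its gene, with capitals marking the matched element. On the opposite strand CCAAT reads ATTGG and CCACG reads CGTGG. In HERPUD1 the first capitals mark the core of an AARE and the later ones the ERSE-II.
HSPA5, chr9:128003662-128003708, minus strand: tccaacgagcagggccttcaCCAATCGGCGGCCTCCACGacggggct
HSP90B1, chr12:104323989-104324017, plus strand: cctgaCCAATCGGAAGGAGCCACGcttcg
HSP90B1, chr12:104324094-104324122, plus strand: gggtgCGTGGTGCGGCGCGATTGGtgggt
CALR, chr19:13049178-13049236, plus strand: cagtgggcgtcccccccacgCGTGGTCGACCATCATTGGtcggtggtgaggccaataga
XBP1, chr22:29196586-29196629, minus strand: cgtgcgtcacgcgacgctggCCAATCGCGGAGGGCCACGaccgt
HERPUD1, chr16:56965858-56965967, plus strand: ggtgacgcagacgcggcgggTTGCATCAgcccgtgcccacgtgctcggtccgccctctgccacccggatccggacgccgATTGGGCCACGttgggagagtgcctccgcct
SDF2L1, chr22:21996383-21996433, plus strand: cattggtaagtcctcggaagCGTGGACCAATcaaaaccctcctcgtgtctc
DNAJB9, chr7:108210198-108210310, plus strand: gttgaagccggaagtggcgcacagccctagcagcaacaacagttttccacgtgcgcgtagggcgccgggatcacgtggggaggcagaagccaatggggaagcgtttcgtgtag

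ERSE was present in the windows of 4 of the 10 genes, HSPA5, HSP90B1 (at 2 places), CALR and XBP1, and in 27 of all 35116 windows (0.0769%). ERSE-II was present in HERPUD1 and SDF2L1, and in 19 windows in all (0.0541%). The UPRE core, searched as TGACG followed by TGG, was in none of the 10 genes and in 0.729% of windows. The AARE core, TGATG followed by any base and AA, was in HERPUD1 alone of the 10 and in 3.62% of windows. None of these 4 motifs overlapped another in a window of the 10 genes. DNAJB9, DNAJC3, EDEM1 and PDIA4 held none of the 4, which says only that these letters were not in these windows. A match of letters is a description and was not tested as a site of binding. The stretches lay outside exons of a GENCODE annotation on GRCh37, with 1 exception. Both HSP90B1 pieces overlapped an HSP90B1 exon of that annotation and the first also an exon of TTC41P.

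**Figure D1:**
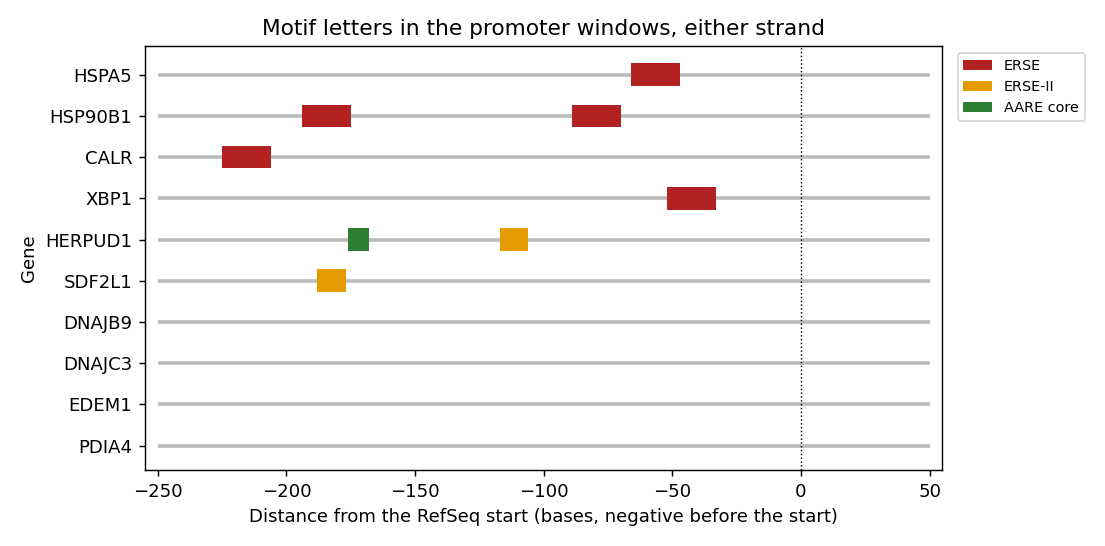
Matches to ERSE, ERSE-II and the AARE core in the promoter windows of the 10 genes, against distance from the RefSeq start in bases (grey lines, the windows searched). The ERSE of HSPA5 and XBP1 lay 66 to 48 and 52 to 34 bases before the start, those of HSP90B1 and CALR reached farther, and 4 genes held no match.

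DNAJB9 and HERPUD1 had the largest differences from control under both treatments, followed by XBP1. The abundant chaperones of the lumen differed by 1.16-fold or less in either direction. With GPNA XBP1 was barely above HSPA5 (1.16-fold), and their order reversed without the first control library or without the first GPNA library. DNAJB9 was 1.87-fold higher with GPNA and 1.87-fold higher with BenSer, HERPUD1 1.33-fold and 1.48-fold, and XBP1 1.18-fold and 1.36-fold. All 10 genes passed the filter of a mean of 5 reads in either group. At least 1.5-fold higher with GPNA was 1 of the 10, DNAJB9, against 0.34% of the 18828 genes tested, and 0 of the 10 were as much lower, against 0.0637%. With BenSer the count was again 1 higher, against 1.96% of 18976 genes, and 0 lower, against 1.58%. Differences are given below in log2(CPM + 1), where 1.5-fold is 0.585 and where the change of a gene at a low level is understated.

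With GPNA all 10 values were above 0, with a median of 0.11, while the median of all genes was -0.028 and 43.3% of them were above 0. With BenSer 7 of the 10 were above 0, with a median of 0.064 against -0.028 for all genes, 44.6% of which were above 0. The counting interval lay above 0 for 8 of the 10 genes with GPNA (9.78% of all genes) and below 0 for none (20.1%). With BenSer it lay above 0 for 6 (18.2% of all genes) and below 0 for 2, PDIA4 and EDEM1 (25.8%). An interval narrows with the number of reads, and the 10 genes and the table were not matched for it. Both comparisons use the same control libraries and are therefore not independent. Scaling by TMM, which sets the bulk of genes equal, raised the medians of the 10 genes to 0.14 with GPNA and 0.11 with BenSer and the count with BenSer to 2, HERPUD1 joining DNAJB9. The median with GPNA was 0.17 without the second control library. Over all genes with BenSer TMM turned 371 higher and 300 lower into 432 and 214.

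**Figure D2:**
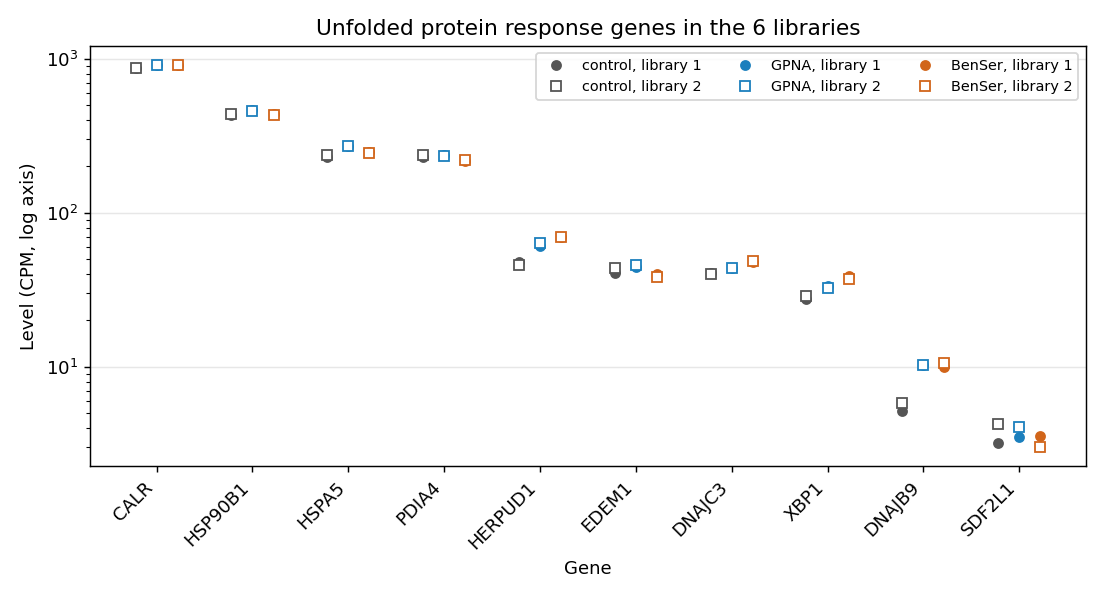
Level of each gene in CPM (log axis) in the 6 libraries, filled circles for library 1 and open squares for library 2 of control, GPNA and BenSer. Libraries of a group nearly coincide for CALR, HSP90B1, HSPA5 and PDIA4, and the treated libraries of DNAJB9, at 9.98 to 10.7 CPM, stand clear of the control libraries at 5.17 and 5.85 CPM.

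DNAJB9 (ENSG00000128590; GRCh37 chromosome 7, 108210311 to 108215294, plus strand) encodes ERdj4, a co-chaperone of BiP that is a known target of spliced XBP1 and that restrains IRE1. Its level was 5.17 and 5.85 CPM in the control libraries, 10.3 and 10.3 with GPNA, and 9.98 and 10.7 with BenSer. Every treated library was above both control libraries, and the GPNA and BenSer libraries overlapped. The difference from control was 0.79 (95% interval 0.60 to 1.00) with GPNA and 0.80 (0.61 to 1.00) with BenSer, on 255 control reads, 527 reads with GPNA and 662 with BenSer. The interval of the ratio of CPM was 1.60 to 2.18 with GPNA and 1.62 to 2.17 with BenSer. With a pseudocount of 5 in place of 1 the differences were 0.54 and 0.54, below 1.5-fold.

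DNAJC3 (ENSG00000102580; chromosome 13, 96329393 to 96447242, plus strand) encodes p58IPK, a further BiP co-chaperone and a known inhibitor of eIF2α kinases. It had 40.4 and 40.0 CPM in the control libraries, 43.5 and 43.7 with GPNA and 47.9 and 48.4 with BenSer. The 3 groups did not overlap, in the order control, GPNA, BenSer. The difference was 0.12 (0.028 to 0.20) with GPNA and 0.26 (0.17 to 0.34) with BenSer. DNAJC3 thus differed far less than the other co-chaperone, DNAJB9.

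HERPUD1 (ENSG00000051108; chromosome 16, 56966054 to 56978776, plus strand) encodes HERP, a membrane protein that organises the ubiquitin ligase complex of endoplasmic reticulum-associated degradation. It had 47.9 and 45.8 CPM in the control libraries, 60.7 and 63.8 with GPNA and 69.4 and 69.3 with BenSer. Again the groups did not overlap and BenSer was the highest. The difference was 0.40 (0.32 to 0.48) with GPNA and 0.56 (0.48 to 0.63) with BenSer, the latter just under 1.5-fold; it was 0.59 without the first control library. Its promoter was the only one of the 10 to hold an AARE core beside an ERSE-II, as printed above.

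EDEM1 (ENSG00000134109; chromosome 3, 5229331 to 5261643, plus strand) encodes a lectin-like protein that directs misfolded glycoproteins to degradation. It had 40.5 and 44.1 CPM in the control libraries, 44.1 and 46.0 with GPNA and 40.2 and 38.0 with BenSer. Both GPNA libraries were above both control libraries by a small margin, and both BenSer libraries below them. The difference was 0.089 (0.0039 to 0.18) with GPNA and -0.11 (-0.19 to -0.026) with BenSer, and the latter was -0.064 under TMM. The gap between the 2 control libraries, 0.12, was as large as either difference, which came to 0.030 with GPNA without the first control library and to -0.048 with BenSer without the second.

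XBP1 (ENSG00000100219; chromosome 22, 29190543 to 29196585, minus strand) encodes the transcription factor whose mRNA is cut by IRE1 and rejoined in another reading frame. It had 27.5 and 28.6 CPM in the control libraries, 33.6 and 32.5 with GPNA and 38.9 and 37.1 with BenSer. The groups did not overlap, in the same order as for HERPUD1 and DNAJC3. The difference was 0.23 (0.13 to 0.33) with GPNA and 0.43 (0.33 to 0.52) with BenSer. Reads per gene do not separate the spliced from the unspliced mRNA, so XBP1 splicing was not measured.

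HSPA5 (ENSG00000044574; chromosome 9, 127997132 to 128003661, minus strand) encodes BiP, the Hsp70 chaperone of the lumen, which also holds the 3 sensors inactive. It had 232 and 236 CPM in the control libraries, 273 and 272 with GPNA and 247 and 244 with BenSer. All treated libraries were above the control, GPNA more so. The difference was 0.22 (0.18 to 0.25) with GPNA and 0.068 (0.033 to 0.10) with BenSer, on 10838 to 15736 reads a group.

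HSP90B1 (ENSG00000166598; chromosome 12, 104323885 to 104347709, plus strand) encodes GRP94, the Hsp90 of the lumen. It had 429 and 435 CPM in the control libraries, 465 and 458 with GPNA and 440.0 and 433 with BenSer. The GPNA libraries were above the control and the BenSer libraries overlapped it. The difference was 0.095 (0.068 to 0.12) with GPNA and 0.015 (-0.011 to 0.041) with BenSer.

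CALR (ENSG00000179218; chromosome 19, 13049392 to 13055303, plus strand) encodes calreticulin, a calcium-binding lectin chaperone. It had 874 and 869 CPM in the control libraries, 903 and 903 with GPNA and 907 and 909 with BenSer. Treated libraries lay above the control by a narrow margin under either compound. The difference was 0.051 (0.032 to 0.071) with GPNA and 0.059 (0.041 to 0.078) with BenSer.

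PDIA4 (ENSG00000155660; chromosome 7, 148700154 to 148725754, minus strand) encodes ERp72, which forms and rearranges disulfide bonds. It had 229 and 237 CPM in the control libraries, 235 and 232 with GPNA and 217 and 219.8 with BenSer. The GPNA libraries lay between the control libraries, and the BenSer libraries lay below all others. The difference was 0.0027 (-0.035 to 0.040) with GPNA and -0.093 (-0.13 to -0.057) with BenSer.

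SDF2L1 (ENSG00000128228; chromosome 22, 21996591 to 21998588, plus strand) encodes a small luminal protein that works with BiP co-chaperones. It had 3.23 and 4.29 CPM in the control libraries, 3.49 and 4.09 with GPNA and 3.54 and 3.04 with BenSer. The groups overlapped, and its libraries differed most within a group, by up to 0.32, against a median of 0.026 over the 10 genes. The difference was 0.0084 (-0.23 to 0.25) with GPNA and -0.15 (-0.37 to 0.085) with BenSer, so that no difference was detectable on 174 to 211 reads a group.

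**Figure D3:**
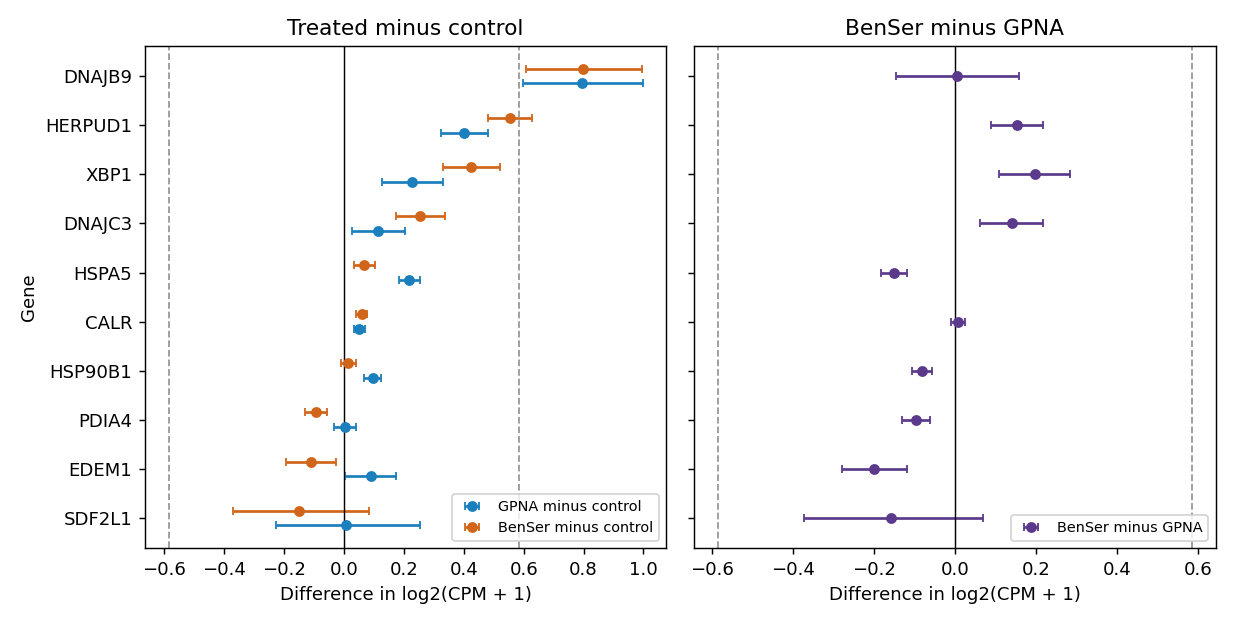
Difference in log2(CPM + 1) for each gene, treated minus control on the left and BenSer minus GPNA on the right, with 95% counting intervals (bars) and 1.5-fold in either direction (dashed lines). On the left DNAJB9 lies past 1.5-fold under both compounds and HERPUD1 with BenSer just inside it, and on the right no gene reaches 1.5-fold.

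Set beside the promoter letters, the 4 genes with ERSE differed from control by 0.051 to 0.23 with GPNA and by 0.015 to 0.43 with BenSer. The 2 with ERSE-II differed by 0.40 and 0.56 (HERPUD1) and by 0.0084 and -0.15 (SDF2L1). The 4 with none of the motifs differed by 0.0027 to 0.79 with GPNA and by -0.11 to 0.80 with BenSer, DNAJB9 being the highest of all 10. With so few genes the presence of an element and the size of a difference were only set side by side.

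Taken as a sum, the 10 genes had 1937 CPM in control cells, 2069 with GPNA (6.79% more) and 2017 with BenSer (4.10% more). The 4 luminal chaperones and foldases (HSPA5, HSP90B1, CALR and PDIA4) made up most of it, with 1771, 1871 and 1808 CPM, or 5.65% more with GPNA and 2.13% more with BenSer. The other 6 genes had 167, 198 and 208 CPM, or 18.8% and 24.9% more. With GPNA most of the net rise was thus that of the 4 abundant genes (100.1 of 131 CPM). With BenSer the net rise of 79.4 CPM was split, 37.8 CPM from the 4 abundant genes and 41.6 CPM from the other 6. These sums are net of genes that were lower with BenSer, PDIA4 among the 4 and EDEM1 and SDF2L1 among the 6. They were not computed under TMM scaling.

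Set against each other, the treatments differed in opposite directions for different members. DNAJC3, HERPUD1 and XBP1 were higher with BenSer than with GPNA, by 0.14 (0.063 to 0.22), 0.15 (0.088 to 0.22) and 0.20 (0.11 to 0.29), and these 3 were the genes with an interval above 0 (21.2% of all genes). HSPA5, HSP90B1, PDIA4 and EDEM1 were lower with BenSer, with differences of -0.15 (-0.18 to -0.12), -0.081 (-0.11 to -0.056), -0.096 (-0.13 to -0.061) and -0.20 (-0.28 to -0.12), and were the 4 with an interval below 0 (20.7%). For DNAJB9 the difference was 0.0055, with an interval from -0.15 to 0.16, for CALR 0.0080 (-0.0096 to 0.026) and for SDF2L1 -0.16 (-0.37 to 0.069). None of the 10 reached 1.5-fold in either direction, where 1.05% of 19056 genes were higher and 0.813% lower. The compounds were given at 1 mM (GPNA) and 10 mM (BenSer). The study also cites that BenSer inhibits LAT1, a transporter of leucine, besides ASCT2. A difference between the compounds therefore cannot be told apart from one of dose or of target.

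Per kilobase of the canonical transcript, the order of levels in the control was CALR (458 CPM per kb), HSP90B1 (155), PDIA4 (84.3), HSPA5 (59.7), HERPUD1 (16.4), XBP1 (15.7), DNAJC3 (7.19), EDEM1 (6.92), SDF2L1 (4.56) and DNAJB9 (2.29). Of neighbours in this order, DNAJC3 and EDEM1 overlapped between libraries (7.15 to 7.23 against 6.62 to 7.22), and HERPUD1 and XBP1 nearly did (16.1 to 16.8 against 15.3 to 16.0). On this scale the gene with the largest relative difference, DNAJB9, was the one at the lowest level. In CPM the lowest in the control was SDF2L1, at 3.76 CPM against 5.51 CPM for DNAJB9. DNAJB9 reached 4.27 CPM per kb with GPNA, below SDF2L1 at 4.59, and 4.29 with BenSer, above SDF2L1 at 3.99. XBP1 and HERPUD1 reached 21.2 and 24.3 CPM per kb with BenSer. The order depends on the transcript length used.

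Of the 3 sensors, ERN1 (IRE1) was at least 1.5-fold higher with BenSer, at 24.2 CPM against 15.2 in the control, a difference of 0.63 (0.51 to 0.76), and had 18.7 CPM and a difference of 0.28 (0.14 to 0.41) with GPNA. EIF2AK3 (PERK) stood at 11.0 CPM in control cells, 13.5 with GPNA and 12.9 with BenSer, differences of 0.28 (0.12 to 0.43) and 0.22 (0.068 to 0.37). ATF6 differed by 0.071 (0.0074 to 0.13) with GPNA and 0.18 (0.12 to 0.24) with BenSer. The 3 sensors were listed with ATF6B, the proteases MBTPS1 and MBTPS2 that cut ATF6, and RTCB, the ligase that joins XBP1 mRNA. Of these 7 genes, 0 with GPNA and 1 with BenSer was at least 1.5-fold higher (0.34% and 1.96% of all genes). As much lower were 0 (0.0637% and 1.58%). Their medians were -0.016 (0.022 under TMM) with GPNA and 0.18 with BenSer.

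Lists of the other machinery of the organelle had medians near 0. Of 27 other chaperones and oxidoreductases, 0 were at least 1.5-fold different in either direction under either compound. Over all genes 0.34% were higher and 0.0637% lower with GPNA, and 1.96% and 1.58% with BenSer. Counts of 0 were near these shares. The medians of the 27 genes were 0.012 with GPNA and 0.0064 with BenSer. In that list SDF2, the relative of SDF2L1, differed by 0.41 (0.23 to 0.59) with BenSer and MOGS, the first glucosidase of glycan trimming, by 0.26 (0.17 to 0.36). MANF, a secreted factor of the lumen, differed by -0.20 (-0.27 to -0.13) with BenSer and by 0.12 (0.046 to 0.19) with GPNA, and DNAJC10 (ERdj5) by -0.19 (-0.24 to -0.13) and 0.10 (0.047 to 0.16). MANF and DNAJC10 were lower with BenSer than with GPNA, and SDF2 and MOGS higher. These genes were named for the size of their differences, those between the compounds included, so their directions do not describe the list. Between the compounds 14 of the 27 were above 0 and 13 below, with a median of 0.015.

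Of 23 genes of endoplasmic reticulum-associated degradation and glycosylation, 0 were past 1.5-fold. That was near the shares of all genes, 0.34% higher and 0.0637% lower with GPNA, and 1.96% and 1.58% with BenSer. The medians were -0.0090 with GPNA (0.018 under TMM) and 0.037 with BenSer. EDEM2 and EDEM3, which share the mannosidase-like fold of EDEM1, differed by 0.38 (0.25 to 0.52) and 0.37 (0.29 to 0.45) with BenSer, where EDEM1 was below the control. STT3B, a catalytic subunit of oligosaccharyltransferase, differed by -0.33 (-0.37 to -0.28) and UBE2G2, a ubiquitin-conjugating enzyme, by -0.23 (-0.28 to -0.18) with BenSer. With GPNA these 4 genes differed by 0.035, 0.16, -0.021 and -0.059. They were named for the size of their differences, so their directions do not describe the list. With BenSer 15 of the 23 were above 0 and 8 below, where 44.6% of all genes were above 0. Between BenSer and GPNA 17 were above 0 and 6 below, against 47.9% of all genes above 0.

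Among 35 genes of the translocon and early secretory pathway 0 were past 1.5-fold. Here too the shares of all genes were 0.34% higher and 0.0637% lower with GPNA, and 1.96% and 1.58% with BenSer. The medians were -0.012 with GPNA (0.027 under TMM) and -0.055 with BenSer. MIA3 (TANGO1), which loads collagen into vesicles, came closest, at 0.58 (0.53 to 0.63) with BenSer and 0.26 with GPNA, and passed 1.5-fold under TMM with BenSer. SEC11C, a signal peptidase subunit, differed by 0.26 (0.13 to 0.39) with BenSer. SPCS3, another subunit of that enzyme, differed by -0.41 (-0.50 to -0.31) with BenSer. SSR3, of the translocon-associated complex, differed by -0.36 (-0.41 to -0.31) with BenSer. The genes named here were likewise chosen for size. With BenSer 14 of the 35 were above 0 and 21 below, and between BenSer and GPNA 12 were above and 23 below.

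The genes downstream of PERK and ATF4 had larger medians than the 10 genes above. Of 12 genes of this arm, 4 with GPNA and 5 with BenSer were at least 1.5-fold higher (0.34% and 1.96% of all genes). As much lower were 0 (0.0637% and 1.58% of all genes). The medians were 0.32 and 0.51, against -0.028 for all genes under either compound. Under TMM 5 and 6 were at least 1.5-fold higher, where 82 of 18828 and 432 of 18976 genes were. The medians under TMM were 0.36 and 0.56, against 0.0022 and 0.0028 for all genes. All 12 were above 0 under both compounds, where 43.3% and 44.6% of all genes were. The list was drawn up with earlier results of these data known, so its place above the 10 genes is a description. ASNS (asparagine synthetase) differed by 0.71 with GPNA and 1.18 with BenSer, CHAC1 (a glutathione-degrading enzyme) by 0.83 and 1.33, and SESN2 (a leucine sensor) by 0.80 and 0.87. DDIT3 (CHOP) differed by 0.58 and 0.81, DDIT4 (an inhibitor of mTORC1) by 0.33 and 0.77, and TRIB3 (a pseudokinase) by 0.63 and 0.47. This arm is shared between PERK and the amino acid sensor GCN2, and which kinase acted was not tested.

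**Figure D4:**
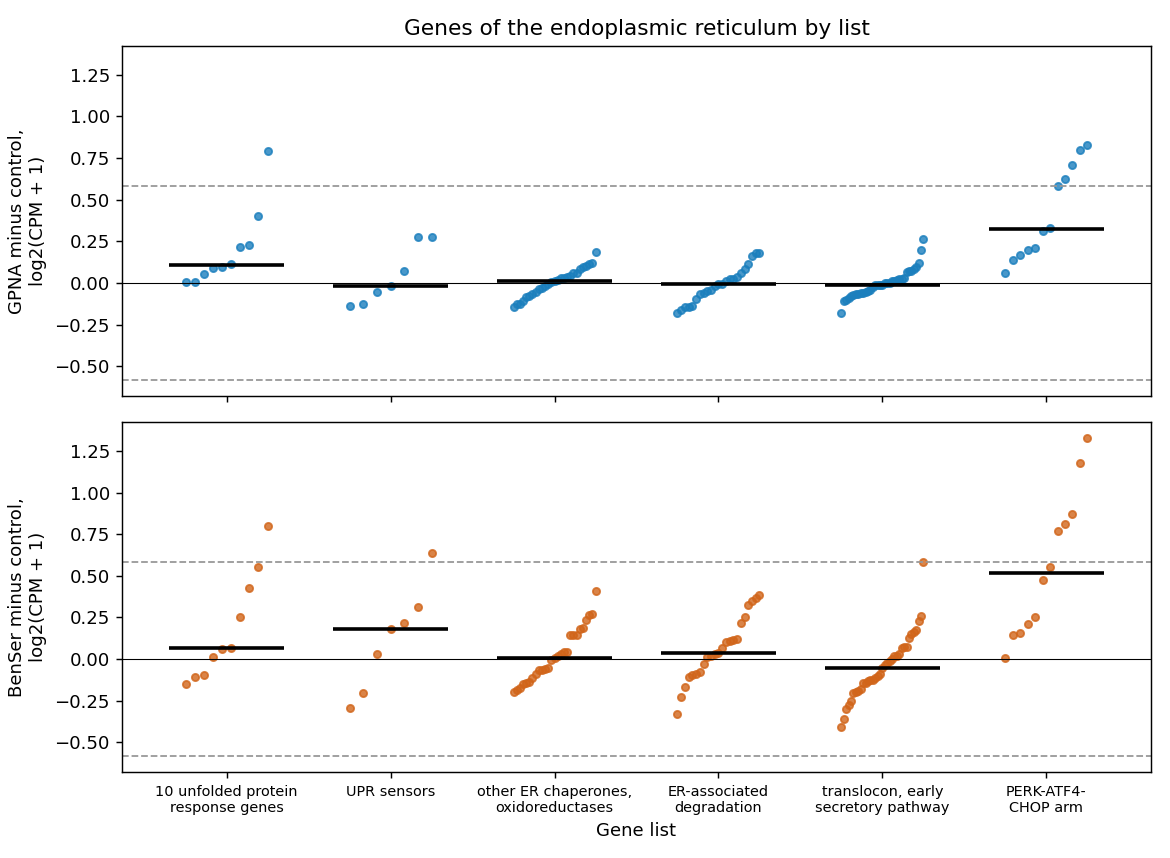
Difference in log2(CPM + 1) from control with GPNA (upper) and BenSer (lower) for each gene (points, sorted within a list) of 6 lists, with the list median (thick line) and 1.5-fold in either direction (dashed lines). The PERK-ATF4-CHOP list has the highest medians, 0.32 and 0.51, and the lists of other chaperones, degradation and translocon genes lie around 0.

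The counts of some of these genes could be shared with others. Overlaps were taken from a GENCODE annotation on GRCh37, not necessarily the one used for the counting. In it HERPUD1 holds 2 lncRNAs on its own strand, and DNAJC3 holds mitochondrial pseudogenes and a lncRNA on its strand. HSP90B1 holds the microRNA MIR3652 on its strand. HSP90B1, CALR and EDEM1 overlap genes on the opposite strand, UQCC6 among them. HSPA5, HSP90B1 and XBP1 have processed pseudogenes elsewhere in the genome. The strand setting of the counting and the handling of reads that match several places are not given in the sources used here, so the levels of these genes carry that uncertainty.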

How the data were processed

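Per the study's methods, stranded total RNA was sequenced paired-end, and reads were trimmed and mapped to hg19/GRCh37.p13 with TopHat2; the processing notes also name Bowtie2, HTSeq 0.6.2p2 and DESeq. The authors deposited CPM, reads scaled to the library total, and 100% were whole reads (within 0.001 read), so reads were recovered. Of 16 value columns in the 2 tables, the 8 that carry no labelled library's name were not used. The authors' own comparisons (log2 fold change, average log2 CPM, p-value, false discovery rate) were not used.

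Group means were compared in log2(CPM + 1) where either group averaged 5 reads or more, with Clopper-Pearson 95% intervals on merged reads. limma 3.58.1, edgeR 4.0.16 and DESeq2 1.42.0 (R 4.3.3; Benjamini-Hochberg adjusted p of 0.05 over all genes) were alternatives that compare libraries, not treatments, tested on simulated data. The 10 genes and the lists were chosen with earlier results of these data known. Named list genes are those at least 1.5-fold different in any comparison (at most 6), otherwise the 2 with the largest difference in each direction, and the 3 sensors.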

Additional observations from a re-analysis of the deposited data

How the results depend on the processing

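With each group counted as 1 sample, and with 1 cell line, the values carry no biological error. With GPNA the interval of SDF2L1 (-0.23 to 0.25), the gene with the fewest reads, covers the difference of XBP1 (0.23). Of the 10 genes, the number at least 1.5-fold higher was 1 with GPNA and 1 with BenSer (0.34% and 1.96% of all genes). With a pseudocount of 5 it was 0 and 0, where 29 of 18828 and 171 of 18976 genes were higher. Counting genes at least 25% higher it was 2 and 3 (2.86% and 7.36% of all genes). With 2-fold it was 0 and 0, where 8 and 83 of all genes were higher. With TMM or DESeq2 size factors it was 1 with GPNA and 2 with BenSer. Of all genes 82 and 432 were higher under TMM, and 81 and 435 with the size factors. Leaving out 1 library at a time gave 1 with GPNA and 1 to 2 with BenSer, the 2 coming without the first control library, when HERPUD1 joined. Of all genes 74 to 90 with GPNA and 376 to 412 with BenSer were then higher. A pseudocount of 0.1, no filter and a filter of 1 CPM left the counts of the 10 genes as they were. The pseudocount of 0.1 changed the background, however. Over all genes it turned 64 higher and 12 lower with GPNA into 879 and 652 of 18828. With BenSer it turned 371 and 300 into 1205 and 1397 of 18976. Over the alternatives the median of the 10 genes ran from 0.10 to 0.17 with GPNA, highest without the second control library, from 0.059 to 0.11 with BenSer, and from -0.055 to -0.028 between the compounds. TMM moved HSPA5, HSP90B1, PDIA4 and CALR to 0.26, 0.14, 0.042 and 0.091 with GPNA and to 0.11, 0.062, -0.046 and 0.11 with BenSer. The sign depended on the setting for PDIA4 with GPNA (-0.024 to 0.042), SDF2L1 with GPNA (-0.14 to 0.18) and BenSer (-0.30 to 0.021), and DNAJB9 between the compounds (-0.040 to 0.049).

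Fits that treat the 2 libraries of a group as replicates compare the libraries only and call differences of any size at an adjusted p of 0.05. Against control with GPNA, limma called 7 of the 10 genes higher (6.61% of all genes), edgeR 8 (7.76%) and DESeq2 6 (2.99%), and each called 0 lower (14.7%, 9.13% and 3.8%). With BenSer limma called 6 higher (15.5%) and 2 lower (21.8%), edgeR 7 (18.9%) and 0 (18.2%), and DESeq2 7 (11.3%) and 0 (10.8%). Between BenSer and GPNA limma called 3 higher (17.2%) and 4 lower (16.4%), edgeR 4 (18.4%) and 4 (16.4%), and DESeq2 2 (10.5%) and 4 (8.74%). Replicate numbers did not pair the libraries (correlations of deviations 0.0166 to 0.023). With GPNA limma with the replicate block called 7 higher (6.63% of all genes) and 0 lower (14.7%). With BenSer it called 6 higher (15.6%) and 2 lower (21.9%), and between the compounds 3 higher (17.3%) and 4 lower (16.4%). DESeq2 gave no adjusted p for SDF2L1 with GPNA.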

Other observations

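Other genes whose promoter window holds ERSE or ERSE-II can be set beside the 10. Besides the 6 members with either element, 24 genes with enough reads had one, and 0 of them were at least 1.5-fold higher with GPNA or with BenSer, where 0.353% and 2.33% of all genes with a matched window were. With GPNA 0 and with BenSer 1 was as much lower, SHCBP1 at -0.61 (-0.75 to -0.46), the largest difference of the 24 (8 of 11606 and 217 of 11665 over all matched windows). The medians of the 24 were -0.038 with GPNA and -0.094 with BenSer, against -0.038 and -0.034 for all genes with a matched window. FICD, the enzyme that AMPylates BiP, differed by 0.40 with GPNA and 0.26 with BenSer, while HYOU1, a lumenal Hsp70 relative, differed by -0.054 and -0.0086, CANX (calnexin) by 0.034 and 0.0064, and CRELD2, a secreted factor of the lumen, by -0.14 and -0.11. The 5 genes named were chosen after their values were seen.

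The AARE core of HERPUD1 is shared by 343 genes with enough reads for the GPNA comparison, of which 6 (1.75%) were at least 1.5-fold higher, where 0.353% of the 11606 genes with a matched window were. With BenSer 18 of 349 (5.16%) were, against 2.33% of 11665. At least 1.5-fold lower were 0 of the 343 with GPNA and 8 of the 349 with BenSer, against 8 of 11606 and 217 of 11665. The medians were 0.00060 and 0.038, against -0.038 and -0.034 for all genes with a matched window. The core is short, windows were matched by symbol for part of the table, and no test was made of these shares.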
